A study of Macaca fascicularis with 605 samples.

Results

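The 9 genes described here are KLF4, KLF5, KLF17, TFCP2L1, SOX15, DPPA2, DPPA3, DPPA4 and DPPA5, chosen by name as factors of the naive state of pluripotency and as genes of the DPPA group. Earlier results of these data were known when they were chosen. They are 9 of the 26018 genes in the deposited table, and each symbol had 1 row. In the table KLF4 carries the identifier 101926136, KLF5 102142169, KLF17 102145349, TFCP2L1 102124314, SOX15 102130680, DPPA2 102129918, DPPA3 102146769, DPPA4 102116348 and DPPA5 102134696. They were followed through 605 single cells of the cynomolgus monkey, from the blastocyst over the implanted embryo to the gonad, and in cultured stem cells and germ cell-like cells.

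Naive pluripotency is the state of the epiblast of the blastocyst, held by a network of transcription factors that is replaced after implantation, when the epiblast prepares for germ layer formation. KLF4, KLF5 and KLF17 are zinc finger factors of the Krüppel-like family, TFCP2L1 is a Grainyhead-related factor and a target of LIF signalling in mouse stem cells, and SOX15 is an HMG box factor of the SOX family. DPPA2 and DPPA4 are SAP-domain chromatin proteins that bind each other, DPPA3 (also called Stella) is a maternal factor that limits maintenance of DNA methylation, and DPPA5 is a KH-domain RNA-binding protein. Primordial germ cells, the precursors of eggs and sperm, arise after implantation and take up part of the naive network again.

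The cells comprised 540 embryo cells of embryonic day 6 (E06) to E20, 28 cells of embryonic stem cell (ESC) lines, 12 cells resembling primordial germ cells made in culture (PGCLCs) and 25 germ cells of embryonic gonads. Embryo cells were taken at E06, E07, E08 and E09, before implantation, and at E13, E14, E16, E17 and E20, after it, and gonadal cells at E36, E43, E47, E50, E51 and E55. The ESC lines were CMK6 (13 cells) and CMK9 (7 cells), grown on mouse feeder cells in serum replacement medium with 4 ng/ml bFGF and 1000 U/ml mouse LIF, and 656BTAG (8 cells), grown in AITS medium with 20 ng/ml bFGF and IWR1 at 2.5 nM as the labels give it. PGCLCs were BTAG-positive cells sorted at day 8 from aggregates of 656BTAG ESCs with Y27632 (10 µM), LIF (1000 U/ml), BMP4 at 200 ng/ml, EGF at 50 and SCF at 100 ng/ml. They were induced either in GMEM plus serum replacement (GK15, 6 cells) or Advanced RPMI1640 with B27 (aRB27, 6 cells), so both PGCLC groups come from 1 line and were selected by its reporter. What the reporter reads is not given in the sources used here. Embryos before implantation were dissociated whole, whereas after implantation a dissected piece with epiblast, amnion, hypoblast and yolk sac endoderm was used. The labels name no animal, embryo or culture for any cell, and 1 CMK6 cell has a description that names CMK9. Leaving that cell out changed no call of the 9 genes.

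Transcripts were measured by SC3-seq, which reads tags at the 3-prime ends of amplified cDNA, and values are in RPM, reads per cell scaled by the authors to a common total. A level is the mean RPM over cells with its SD over cells unless stated otherwise. Read depth could be worked out for 530 cells and ran from 255085 to 9774719 reads, with a median of 2163877. Embryo days mix lineages, so embryo cells were also split by gates on genes outside the 9. The epiblast gate takes cells with POU5F1 and SOX2 at 50 RPM or more and GATA4 and GATA3 under 50 RPM (189 cells). The germ cell gate takes embryo cells with POU5F1, SOX17, TFAP2C and PRDM1 each at 50 RPM or more (26 cells). These are thresholds, not annotations. Among genes that the respective gate does not use, NANOG averaged 824 RPM and DNMT3B 2432 RPM in the epiblast gate, and KIT 288 RPM, NANOS3 14.6 RPM and SOX2 5.14 RPM in the germ cell gate. In gonadal cells DAZL averaged 136.2 RPM and DDX4 128.2 RPM, both markers of later germ cells, against 0.644 and 0 RPM in PGCLCs.

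The question for the epiblast was which of the 9 genes are on in the blastocyst and which go off after implantation. All 9 were present in the epiblast gate of E06 to E09 (13, 12, 19 and 6 cells), and 8 of 9 were lower at E13, E14, E16 and E17 (34, 30, 42 and 33 cells). KLF4, one of the classical reprogramming factors, averaged 929.6, 579, 242 and 214.7 RPM at E06, E07, E08 and E09, and 30.3, 33.2, 2.31 and 3.65 RPM at E13, E14, E16 and E17. KLF4 was thus highest at E06, and it was at 50 RPM or more in 45 of 50 cells before implantation against 14 (10.1%) after it. KLF5, its relative in the naive network, averaged 212.9, 139.5, 85.97 and 153.5 RPM on the 4 early days and 18.6, 39.7, 3.48 and 3.26 RPM on the 4 late days. At E14 the KLF5 cells ranged from 0 to 318 RPM with a median of 1.81, so a minority of cells carried that day's mean. KLF17, a marker of the naive state in human cells, was low even before implantation, with day means of 9.40, 35.8, 20.1 and 13.4 RPM and 7 of 50 cells at 50 RPM. After implantation no cell of the epiblast gate had more than 10.3 RPM of KLF17.

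TFCP2L1 and SOX15 had similar means on the 4 blastocyst days and low ones afterwards. TFCP2L1 averaged 104.3, 67.04, 85.1 and 80.7 RPM from E06 to E09, days whose cells overlap widely, and 3.65, 3.502, 2.37 and 0.150 RPM from E13 to E17. SOX15 averaged 96.3, 134.97, 115.3 and 121.4 RPM before and 12.998, 5.38, 4.11 and 7.40 RPM after implantation. At 50 RPM or more, TFCP2L1 was found in 38 of 50 early cells and 1 late cell, and SOX15 in 41 of 50 early and 2 late cells.

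The DPPA genes split into several courses. DPPA3 was at 50 RPM or more in 50 of 50 early cells, with day means of 580.5, 579, 434 and 382 RPM. Its means lay at 2 levels after implantation, 48.2 and 36.5 RPM at E13 and E14 and 3.31 and 2.41 RPM at E16 and E17. DPPA2 averaged 668, 1024, 1262 and 1164 RPM early and 107.6, 117.8, 54.2 and 43.7 RPM late, and was still at 50 RPM or more in 83 late cells (59.7%). DPPA4, its binding partner, was lower at E06 than on the next days, with 210.2, 1192, 936 and 912 RPM, and stayed on after implantation, with 324, 413, 239 and 154.7 RPM. The highest E06 cell had 343 RPM of DPPA4 and the lowest E09 cell 578 RPM. DPPA5 too was lowest at E06 among the early days, with 648, 2324, 2099.8 and 2530.4 RPM, and was still at 1609 and 1551 RPM at E13 and E14, and then at 198 and 110.2 RPM at E16 and E17. The lowest of the 30 cells of E14 had 755 RPM of DPPA5 and the highest of the 42 cells of E16 had 634 RPM. Cells are not replicates of a day, and the share of all genes separated in this way was not worked out. The day means of DPPA5 were thus high at E13 and E14 and low at E16 and E17, whereas those of KLF17, TFCP2L1 and SOX15 were low at E13 already. The labels name no embryo, and a difference between embryos of these days was not tested.

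**Figure D1:**
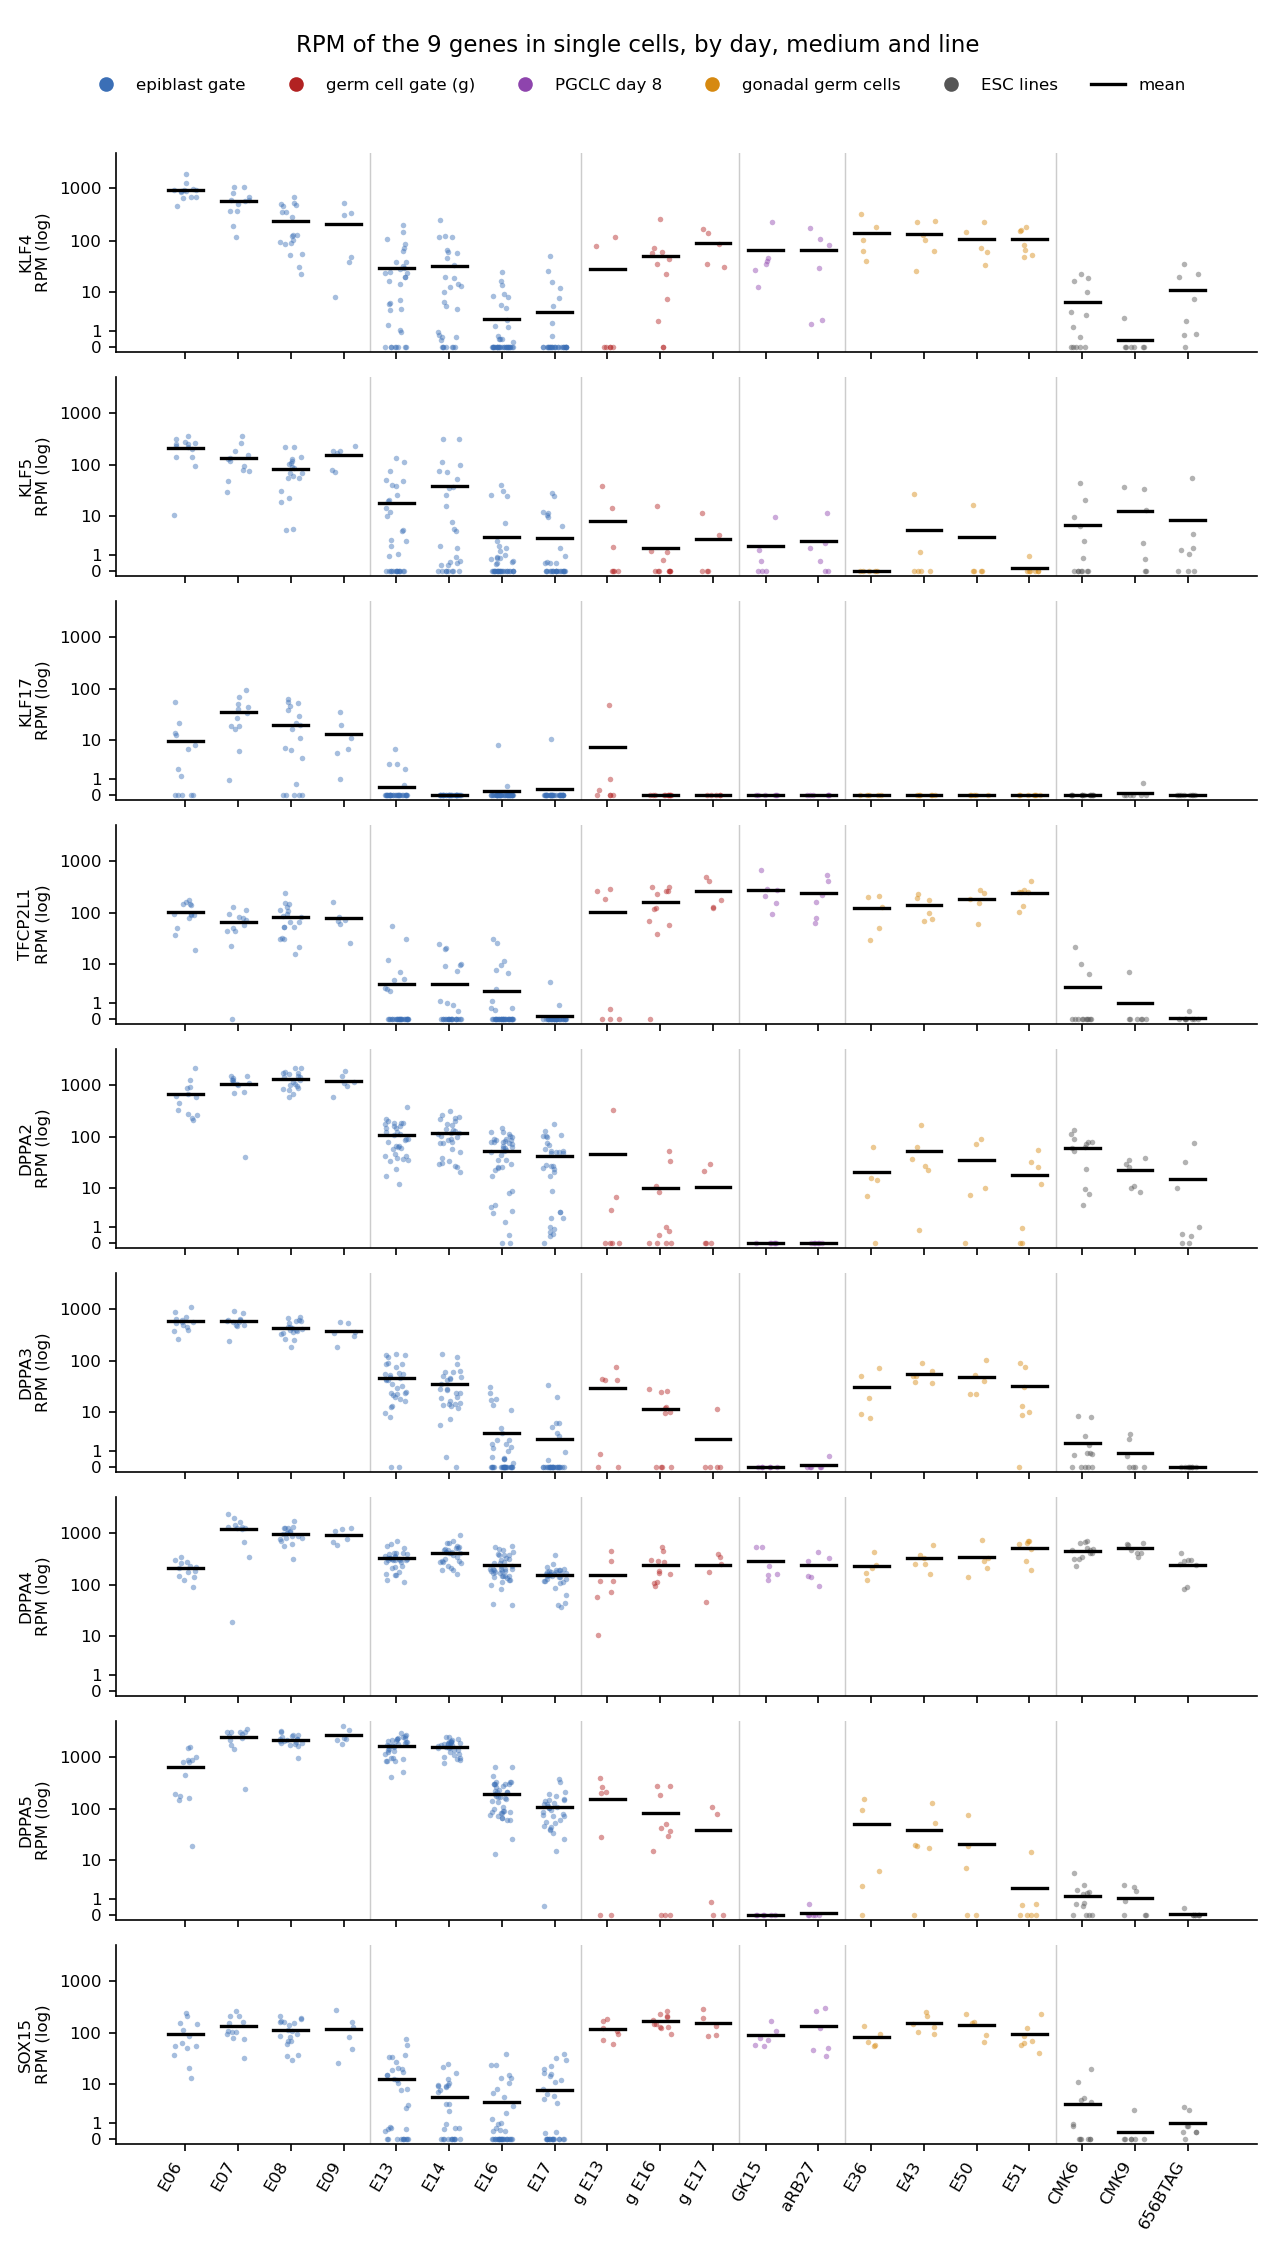
Each panel shows 1 gene in single cells (points) and the mean over cells (black bars), as RPM on a log2(RPM + 1) axis. From left to right stand the epiblast gate by embryonic day (blue), the germ cell gate by day (red), PGCLCs by medium (purple), gonadal germ cells by day (orange) and ESC lines (grey). TFCP2L1 and SOX15 are high in blue E06 to E09, low in blue E13 to E17 and high again in red, purple and orange, while KLF17 stays at 0 in purple and orange.

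For the test, the cells of a line, medium or day were averaged into 1 unit, since cells are not replicates, and units of at least 5 cells were compared with limma on log2(mean RPM + 1). Genes with 10 RPM or more in at least 2 units were tested, a call is a Benjamini-Hochberg adjusted p under 0.05 over all genes tested, and log2 changes carry their SE. The units are different days, lines or media, so the p-values measure only the spread between them. Between 4 epiblast gate days after and 4 before implantation, 19% of the 10870 genes tested were called, 9.94% higher and 9.02% lower, and 8 of the 9 genes were called lower. The log2 change was -5.24 ± 0.66, adjusted p = 3.17e-05 for DPPA3 (22.6 ± 23.3 against 494 ± 101.6 RPM, SD over 4 days each). It was -5.18 ± 0.63, adjusted p = 2.42e-05 for KLF4, and -4.81 ± 0.39, adjusted p = 3.14e-07 for TFCP2L1. KLF17 changed by -3.91 ± 0.52, SOX15 by -3.90 ± 0.33, DPPA2 by -3.74 ± 0.38 and KLF5 by -3.67 ± 0.73. DPPA4 changed least among those called, at -1.36 ± 0.42, adjusted p = 0.0325, and DPPA5 was not called, at -1.79 ± 0.85, adjusted p = 0.159. The means of early and late days did not overlap for the 7 genes called other than DPPA4, as for 32.6% of all genes tested. The call of DPPA4 was lost when any of 5 of the 8 days was left out (E07, E08, E09, E16 or E17), without the filter, and in the fit without the gonadal cells with somatic genes (adjusted p up to 0.127 over all alternatives). KLF17 reached 10 RPM in the early days alone, so it was tested because of the class in which it is high. Its call held without the filter. The call of KLF5 was lost in edgeR on recovered reads (adjusted p = 0.115).

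The titles carry a code (an MS number) that the labels do not explain, and 1 code, MS126, held epiblast gate cells from both periods, 13 before and 27 after implantation. Within it TFCP2L1 averaged 85.8 ± 46.4 and 0.153 ± 0.793 RPM, and SOX15 103.6 ± 56.6 and 8.33 ± 11.6 RPM. DPPA3 averaged 401 ± 156.6 before and 2.57 ± 7.70 RPM after, DPPA4 920.3 ± 274 and 153.1 ± 70.6 RPM, and KLF4 225.96 ± 224.02 and 4.11 ± 10.6 RPM. All 9 genes had the higher mean before implantation within this code.

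Lists of other pluripotency genes were set beside the 9. The lists were chosen with earlier results of these data known, so their counts and medians, here and below, are descriptions. Of a list of 22 other genes of the naive network, 20 were in the table and 17 were tested, 12 were lower and 2 higher, with a median log2 change of -2.05 against -0.05 over all genes tested. NLRP7, a maternal effect gene, went from 3162 to 70.6 RPM (log2 change -7.83 ± 1.02, adjusted p = 4.7e-05). DNMT3L, a cofactor of DNA methylation, changed by -5.64 ± 1.07, TFAP2C, a factor of the naive epiblast and of germ cells, by -4.89 ± 0.40, and ESRRB, an orphan nuclear receptor, by -4.00 ± 0.83. LIFR and ZFP42 were the 2 that rose, by 2.31 ± 0.69 and 2.04 ± 0.53. Of 20 genes of the epiblast after implantation, 19 were tested, 10 rose and none fell (median log2 change 2.37), among them the secreted WNT inhibitors SFRP1 (6.68 ± 0.95) and SFRP2 (5.52 ± 0.67), the surface protein CD24 (5.76 ± 0.59) and the factor SOX11 (5.20 ± 0.75).

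Over all embryo cells, lineages mixed, the day means ran as follows from E06 to E17 (E06, E07, E08, E09, E13, E14, E16 and E17, with at least 16 cells a day). KLF4 averaged 868, 616, 259.9, 213.9, 15.7, 27.5, 7.62 and 12.4 RPM. KLF5 averaged 172, 388, 297, 187.8, 57.1, 35.5, 38.2 and 14.1 RPM, so unlike in the epiblast gate its highest day was E07. TFCP2L1 averaged 107.7, 98.5, 101.2, 110.9, 9.41, 2.71, 12.46 and 24.1 RPM, and the means from E06 to E09 lie within 98.5 and 110.9 RPM. DPPA2 averaged 630.3, 639.6, 416, 510.0, 60.4, 102.2, 32.3 and 34.5 RPM. DPPA3 averaged 564, 479.6, 347, 299, 41.02, 29.9, 16.6 and 2.53 RPM, each day lower than the one before it. DPPA4 averaged 173, 571, 274, 396, 145.03, 360.4, 121.7 and 131.02 RPM, with E07 highest and E16 lowest. DPPA5 averaged 539, 1112, 605, 1026, 585, 1396, 139.02 and 107.2 RPM, and SOX15 84.9, 77.5, 38.5, 52.2, 17.1, 11.2, 14.9 and 19.9 RPM. KLF17 did not exceed a day mean of 20.9 RPM, at E07. Of the 5 embryo cells of E20, 2 passed the germ cell gate, and none had DPPA3.

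In ESCs most of the 9 genes were near 0. DPPA4 was the exception, at 455 ± 140.3 RPM in CMK6, 499.7 ± 114.9 in CMK9 and 247 ± 108.9 in 656BTAG, and all 28 cells had 50 RPM or more. DPPA2 was detected at lower levels, 61.6 ± 41.2, 23.03 ± 13.1 and 15.1 ± 26.99 RPM in the same order, with 10 of 28 cells at 50 RPM. KLF5 was at 50 RPM in 1 of 28 cells and averaged 6.58, 12.6 and 8.09 RPM. None of the 28 ESCs had 50 RPM of KLF4, KLF17, TFCP2L1, DPPA3, DPPA5 or SOX15, a count of 0 that allows a share of up to 10.7%. Their means over all ESCs were 6.03 RPM for KLF4, 1.64 for TFCP2L1, 2.02 for SOX15, 1.07 for DPPA3 and 0.879 for DPPA5. The median ESC therefore had 1 or 2 of the 9 genes at 50 RPM, against 7 to 8 in the epiblast gate of E06 to E09.

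PGCLCs held TFCP2L1, SOX15, DPPA4 and, in part of the cells, KLF4, and had little or none of the others. TFCP2L1 stood at 94.9, 155.2, 212.04, 277, 285 and 657 RPM in the 6 GK15 cells. In the 6 aRB27 cells it stood at 65.7, 80.02, 160.3, 218.6, 412 and 540.2 RPM. Every PGCLC was thus above the highest ESC, which had 22.3 RPM. SOX15 stood at 55.8, 60.2, 73.9, 81.7, 110.5 and 167.4 RPM in GK15 and 35.6, 46.96, 52.8, 123.3, 269 and 297 RPM in aRB27, again all above the highest ESC (19.9 RPM). KLF4 was uneven, at 12.51, 27.7, 36.8, 41.4, 46.5 and 232 RPM in GK15 and 1.75, 2.27, 30.1, 82.7, 111.1 and 181 RPM in aRB27, and 4 cells of GK15 and 3 of aRB27 exceeded the highest ESC (35.5 RPM). DPPA4 was at 127.7, 158.99, 162.97, 236, 532 and 536 RPM in GK15 and 98.2, 143.8, 147.6, 295, 331 and 434 RPM in aRB27, within the range of the ESCs.

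DPPA2 was listed at 0 in all 12 PGCLCs, while its partner DPPA4 was at 50 RPM or more in all 12. In the 11 PGCLCs with a known depth, a floor of 3 reads over the group corresponds to 0.122 RPM. Against this floor DPPA2 was at least 273-fold lower than in the ESC lines and at least 664-fold lower than in the epiblast gate after implantation, for counting error alone. The ESC value is the mean over 3 lines (33.2 RPM). In 656BTAG, the line from which the PGCLCs were made, DPPA2 averaged 15.1 RPM with a median of 0.76 RPM. Only 1 of its 8 cells had 50 RPM, so the fold does not describe the typical parent cell. DPPA3 and DPPA5 were at 0 in 11 of 12 PGCLCs and at 0.59 RPM in 1 aRB27 cell each. KLF17 was at 0 in all 12, and KLF5 did not exceed 11.3 RPM. For each of these 5 genes, 0 of 12 cells at 50 RPM allows a share of up to 25%. The 2 media gave the same number of genes per cell, a median of 3 of the 9 at 50 RPM.

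In the fit of 3 ESC lines, 2 PGCLC media and 4 gonadal days, 7 of the 9 genes passed the filter on low values and KLF5 and KLF17 did not. TFCP2L1, SOX15 and KLF4 had 10 RPM in 2 or more units through PGCLCs and gonadal cells, and DPPA3 and DPPA5 through gonadal cells alone. DPPA2 had 10 RPM through ESCs and gonadal cells, while both PGCLC units were at 0. All of these genes were tested because of the classes in which they are high, so the counts below are descriptions. Between PGCLCs and ESCs, 4.97% of 10557 genes were called higher and 6.1% lower, and of the 7 genes 3 were higher and 1 lower. TFCP2L1 was at 263 ± 24.1 RPM in the 2 media and 1.33 ± 1.49 RPM in the 3 lines (log2 change 7.03 ± 0.57, adjusted p = 6.03e-06). SOX15 changed by 5.61 ± 0.61, adjusted p = 5.11e-05, and KLF4 by 3.81 ± 0.72, adjusted p = 0.00409. DPPA2 changed by -4.85 ± 0.80, adjusted p = 0.00166, a value set by the pseudocount because the gene is at 0 in PGCLCs. DPPA3 (-0.74 ± 0.85, adjusted p = 0.643), DPPA4 (-0.53 ± 0.36, adjusted p = 0.398) and DPPA5 (-0.70 ± 1.13, adjusted p = 0.754) were not called. The call of KLF4 was lost in edgeR on recovered reads (adjusted p = 0.095). PGCLCs and 656BTAG ESCs carry the same title code, MS168, and within this line TFCP2L1 averaged 0.0550 ± 0.156 RPM in 8 ESCs and 263 ± 186 RPM in 12 PGCLCs. SOX15 averaged 1.02 ± 1.15 and 114.5 ± 87.2 RPM, KLF4 11.1 ± 13.3 and 67.2 ± 73.1 RPM, and DPPA2 15.1 ± 26.99 and 0 RPM. The PGCLCs were sorted on a reporter, and the part of that selection in these levels cannot be told apart from the induction.

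Of the other naive genes, 2 of 13 tested were higher in PGCLCs than in ESCs and none lower (median log2 change -0.62, against -0.17 over all genes). They were TFAP2C, from 16.2 to 583 RPM (5.06 ± 0.47, adjusted p = 1.48e-05), and NANOG, from 293 to 944 RPM (1.79 ± 0.36, adjusted p = 0.00627). Of the genes of the later epiblast, 9 of 19 were lower and 1 higher (median -2.70), with SFRP1 (-8.90 ± 1.26), the retinoic acid-binding protein CRABP2 (-6.38 ± 0.97), CD24 (-5.86 ± 0.48) and the phosphatase DUSP6 (-5.49 ± 1.09) changed most. The cadherin CDH2 was the 1 that rose (1.73 ± 0.44).

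Embryo cells of the germ cell gate, found from E13 on, had TFCP2L1 and SOX15 and still held DPPA5 in part. TFCP2L1 averaged 105.7 ± 134.9, 164.7 ± 117.01 and 268 ± 173 RPM at E13 (7 cells), E16 (11 cells) and E17 (5 cells). At E13 its lowest, median and highest cells were at 0, 0.520 and 286 RPM, so the gate held cells without TFCP2L1. SOX15 was more even, at 118.1 ± 46.2, 170.6 ± 52.9 and 158.9 ± 82.8 RPM, and 24 of 24 cells of E13 to E17 had 50 RPM, while in the epiblast gate of the same days 2 cells did (1.44%). KLF4 averaged 28.999 ± 50.8, 52.2 ± 75.8 and 93.97 ± 62.9 RPM. DPPA4 averaged 158 ± 151.7, 243.3 ± 142.7 and 243.5 ± 137.3 RPM and DPPA5 158.7 ± 152.7, 84.2 ± 109.7 and 39.05 ± 54.1 RPM. DPPA2 was low in most cells, with medians of 0, 0.680 and 0 RPM, but 1 cell of E13 had 323.9 RPM and 1 of E16 53.6 RPM. DPPA3 was low too, with 1 of 24 cells at 50 RPM. KLF5 reached at most 39.5 RPM and KLF17 49.1 RPM, in 1 cell of E13. The germ cell gate is given as a description, with no test. Of the 26 cells, 8 had GATA4 and 11 had GATA3 at 50 RPM or more.

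In gonadal germ cells TFCP2L1, SOX15, KLF4 and DPPA4 were at 50 RPM or more in nearly every cell, and DPPA3, DPPA2 and DPPA5 in a part of the cells. At E36, E43, E50 and E51 (5, 6, 5 and 7 cells) TFCP2L1 averaged 124.9 ± 83.5, 142.02 ± 67.9, 184 ± 82.02 and 239.9 ± 97.4 RPM. SOX15 averaged 83.7 ± 33.8, 158 ± 60.7, 142.4 ± 63.8 and 97.4 ± 64.8 RPM and KLF4 144.7 ± 114.1, 134.2 ± 88.2, 110.9 ± 80.98 and 108.3 ± 57.4 RPM over the same days. These days overlap in their cells, and of 25 gonadal cells, those of E47 and E55 included, 23 had 50 RPM of TFCP2L1, 24 of SOX15 and 22 of KLF4. DPPA4 was at 50 RPM in all 25 cells and averaged 234.9 ± 118.5, 329 ± 148.03, 341 ± 228.1 and 508 ± 199 RPM.

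DPPA3, at or near 0 in PGCLCs, stood at 7.54, 9.30, 19.2, 52.1 and 73.7 RPM in the 5 cells of E36. In the 6 cells of E43 it stood at 37.2, 40.3, 51.1, 52.9, 63.9 and 91.2 RPM. The 5 cells of E50 had 23.01, 23.4, 41.5, 53.7 and 104.1 RPM and the 7 cells of E51 0, 8.85, 9.96, 13.2, 31.5, 77.8 and 92.7 RPM. DPPA3 was thus above 0 in 24 of the 25 gonadal cells and at 50 RPM in 10 of them, below the 184 RPM of the lowest early epiblast gate cell in each case. DPPA2 ranged from 0 to 170.7 RPM with a median of 23.6, and 7 of 25 cells had 50 RPM. DPPA5 stood at 0, 2.51, 5.83, 94.7 and 155.1 RPM at E36 and 0, 17.3, 18.9, 20.54, 53.4 and 133.8 RPM at E43. At E50 it stood at 0, 0, 6.94, 18.9 and 78.4 RPM, and at E51 at 0, 0, 0, 0, 0.570, 0.610 and 14.9 RPM, so 5 of 25 cells reached 50 RPM and none of those were from E51. KLF17 was listed at 0 in all 25 gonadal cells. With a floor of 3 reads over the 20 gonadal cells of known depth, it was at least 272-fold lower there than in the early epiblast gate. KLF5 did not exceed 28.02 RPM. For KLF5 and KLF17, 0 of 25 cells at 50 RPM allows a share of up to 12%.

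Against ESCs, 20.8% of all genes were called in gonadal germ cells, 10.7% higher and 10.1% lower, and of the 7 of the 9 genes tested 5 were called higher. These 5 are among the genes tested because of the classes in which they are high, so the count is a description. Of them DPPA3 and DPPA5 passed the filter through gonadal cells alone, which holds for the comparison with PGCLCs too. DPPA2 passed the filter through ESCs and gonadal cells, so its call against PGCLCs is a description as well. TFCP2L1 changed by 6.38 ± 0.47, adjusted p = 2.32e-06, and SOX15 by 5.66 ± 0.51, adjusted p = 8.63e-06. KLF4 changed by 4.68 ± 0.60, adjusted p = 0.000119. DPPA3 was at 42.8 ± 11.7 RPM over 4 gonadal days and 0.906 ± 0.919 RPM over 3 lines (4.61 ± 0.71, adjusted p = 0.000465). DPPA5 was at 28.9 ± 21.8 and 0.805 ± 0.664 RPM (3.55 ± 0.94, adjusted p = 0.0155). DPPA2 (0.086 ± 0.67, adjusted p = 0.947) and DPPA4 (-0.17 ± 0.30, adjusted p = 0.741) were not called, and their signs changed with the processing. Against PGCLCs, 7.45% of all genes were called higher and 4.95% lower, and 3 of the 7 genes tested were higher: DPPA3 (5.34 ± 0.80, adjusted p = 0.00142), DPPA2 (4.94 ± 0.76, adjusted p = 0.00164) and DPPA5 (4.25 ± 1.07, adjusted p = 0.02). KLF4 (0.87 ± 0.69, adjusted p = 0.425), TFCP2L1 (-0.65 ± 0.54, adjusted p = 0.453), DPPA4 (0.36 ± 0.34, adjusted p = 0.527) and SOX15 (0.052 ± 0.58, adjusted p = 0.964) were not called.

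Without the filter, where every gene above 0 is tested, the calls of TFCP2L1, SOX15, KLF4, DPPA2 and DPPA3 in these comparisons held and those of DPPA5 were lost. DPPA5 had no ESC or PGCLC unit above 1.28 RPM, and its adjusted p without the filter was 0.0758 against ESCs and 0.0993 against PGCLCs. Its adjusted p was 0.0846 against ESCs and 0.0595 against PGCLCs in edgeR on recovered reads. Without the 656BTAG line it was 0.0629 against ESCs. Without GK15 it was 0.121 against PGCLCs, and without aRB27 0.0816. Within title code MS132, 4 gonadal cells averaged 1.89 ± 3.38 RPM of DPPA5 and 3 ESCs 2.83 ± 2.39 RPM, so within this code the gonadal mean was not the higher one. DPPA2 too was lower there in gonadal cells (8.63 ± 10.95 RPM) than in ESCs (89.5 ± 42.3 RPM). For the other genes called the direction held within the code: TFCP2L1 averaged 228.2 ± 134.1 and 0 RPM, SOX15 144.2 ± 65.6 and 0.310 ± 0.537 RPM, KLF4 82.7 ± 45.7 and 0.637 ± 0.696 RPM, and DPPA3 42.1 ± 46.7 and 0.527 ± 0.912 RPM. Gonadal cells and PGCLCs shared no code.

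Markers of gonadal somatic cells were found beside these levels. Of 25 gonadal cells 8 had 3 or more of 9 somatic genes at 50 RPM or more, against 0 of 12 PGCLCs and 0 of 28 ESCs. The sum over these genes ranged from 0 to 2682 RPM in gonadal cells, from 0 to 180.1 RPM in PGCLCs and from 0 to 154.6 RPM in ESCs, with means of 138.7 RPM for NR2F2 and 69.04 RPM for WT1 in gonadal cells. Their part in the levels of the 9 genes was not tested beyond the comparison of those cells with the rest. The median of TFCP2L1 was 103.8 RPM in those 8 cells and 200.7 RPM in the other 17, that of DPPA3 38.7 and 31.5 RPM, and that of KLF4 119.03 and 106.2 RPM. Leaving the 8 cells out, with units of 2 cells or more, changed none of the calls of the 9 genes against ESCs or PGCLCs.

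Of the other naive genes, 8 of 13 were higher and 2 lower in gonadal germ cells than in ESCs (median log2 change 2.55, against -0.03 over all genes). DNMT3L (6.37 ± 0.93), NLRP7 (6.02 ± 0.71), TFAP2C (3.81 ± 0.39) and the homeobox factor VENTX (3.30 ± 0.92) rose most, and PRDM14, a regulator of pluripotency and germ cells, fell (-2.74 ± 0.69). Against PGCLCs 5 of 13 were higher and 1 lower (median 1.77, against 0.14), with NLRP7 (7.35 ± 0.80), VENTX (4.50 ± 1.04), DNMT3L (4.07 ± 1.06) and the cytokine receptor subunit IL6ST (1.77 ± 0.45) the most changed of those above 50 RPM. Of the genes of the later epiblast, 14 of 19 were lower and 1 higher than in ESCs, with ZIC2 (-7.47 ± 0.79), SFRP2 (-6.51 ± 0.50) and SFRP1 (-6.41 ± 1.06) among the most lowered.

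To set the germline beside the epiblast of the time when germ cells arise, PGCLCs and gonadal cells were compared with the epiblast gate of E13 to E17. This comparison shares PGCLC and gonadal units with those above. In PGCLCs 10.1% of 10870 genes were called higher and 14.7% lower, and 3 of the 9 genes were higher and 3 lower. TFCP2L1 changed by 6.46 ± 0.48, adjusted p = 1.47e-07, and SOX15 by 3.85 ± 0.40, adjusted p = 4.72e-06. KLF4 changed by 2.59 ± 0.77, adjusted p = 0.0212. The 3 lower genes were DPPA5 (-8.85 ± 1.04, adjusted p = 1.43e-05), DPPA2 (-6.23 ± 0.46, adjusted p = 1.47e-07) and DPPA3 (-3.61 ± 0.81, adjusted p = 0.00354). DPPA4 differed by 0.0019 ± 0.52, adjusted p = 0.999. In gonadal cells 29.6% of all genes were called, 15.2% higher and 14.5% lower, and TFCP2L1 (5.81 ± 0.39, adjusted p = 3.44e-08), SOX15 (3.90 ± 0.33, adjusted p = 3.51e-07) and KLF4 (3.46 ± 0.63, adjusted p = 0.00057) were again higher. DPPA5 (-4.60 ± 0.85, adjusted p = 0.000632), KLF5 (-2.26 ± 0.73, adjusted p = 0.0263) and DPPA2 (-1.29 ± 0.38, adjusted p = 0.0158) were lower, and DPPA3 was not called (1.73 ± 0.66, adjusted p = 0.057).

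The call of KLF4 in PGCLCs against this gate was lost in edgeR (adjusted p = 0.0845), without a filter, and without GK15, aRB27, E16 or E17, with a highest adjusted p of 0.0981. That of DPPA3 was lost with a pseudocount of 10 RPM (adjusted p = 0.0509). In gonadal cells KLF5 lost its call with a pseudocount of 10 RPM (adjusted p = 0.0708), without the filter (adjusted p = 0.0832), with means of logs over cells (adjusted p = 0.0794) and without E36, E51, E13 or E14. DPPA2 lost its call without E51, E13 or E14 or without the cells with somatic genes. DPPA3 gained one with means of logs (adjusted p = 0.0345), without E13 (adjusted p = 0.00978) or without E14 (adjusted p = 0.0206), the 2 late days on which it was highest in the gate. Within code MS132, 4 gonadal cells and 12 late epiblast gate cells averaged 228.2 and 0.998 RPM of TFCP2L1, 144.2 and 12.4 RPM of SOX15, and 82.7 and 6.56 RPM of KLF4.

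**Figure D2:**
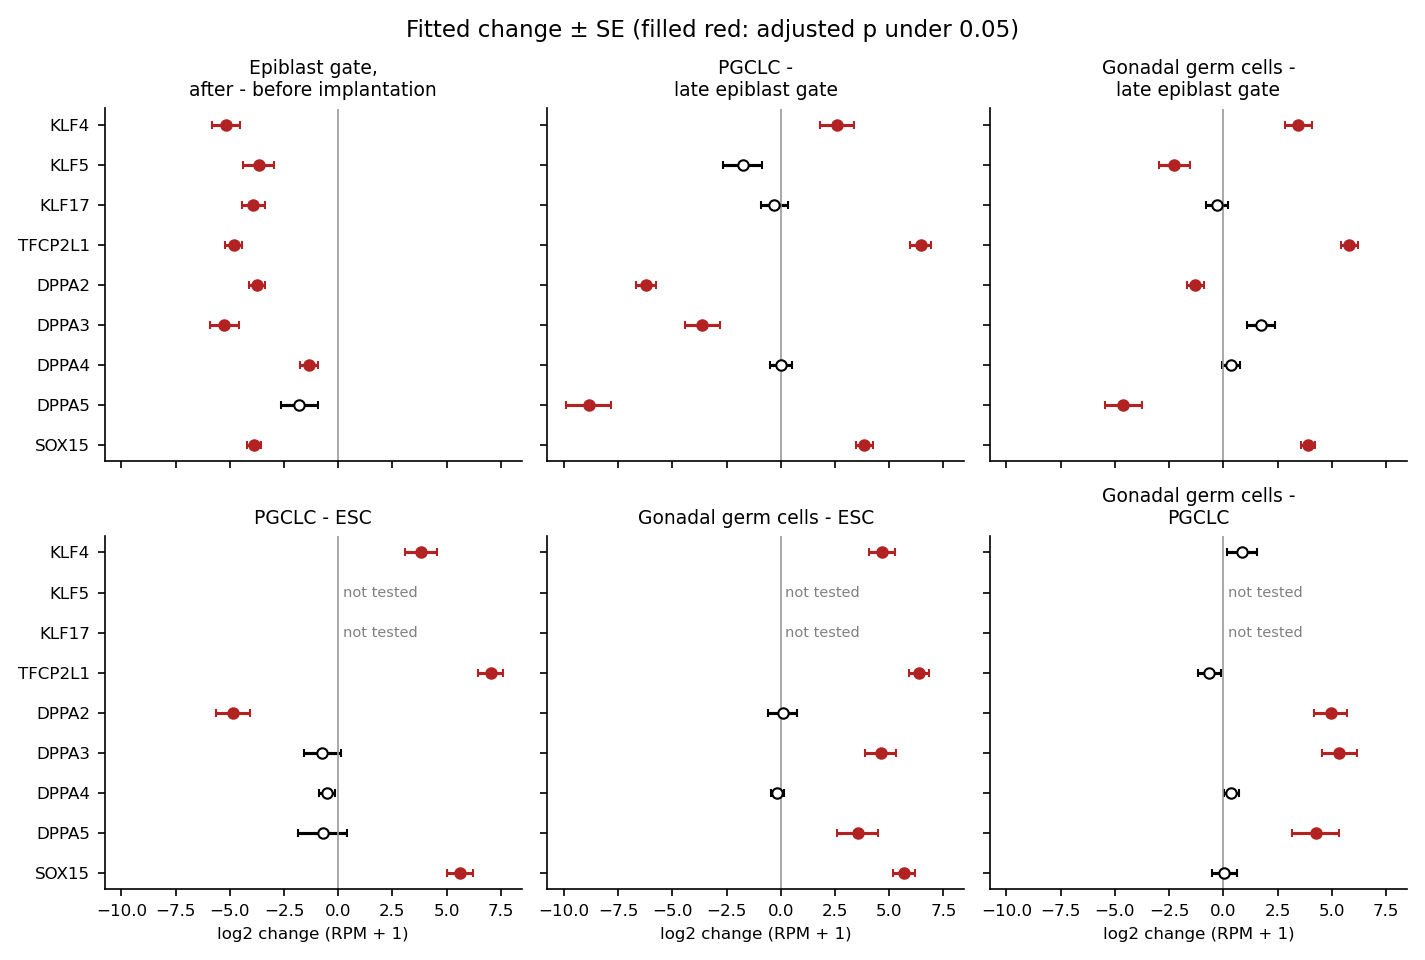
Each panel is 1 comparison between classes of units, the horizontal axis the fitted log2 change of mean RPM + 1, and points with bars the change with its SE. Filled red points have an adjusted p under 0.05, open points do not, and KLF5 and KLF17 did not pass the filter in the comparisons with ESCs. TFCP2L1, SOX15 and KLF4 lie to the left in the first panel and to the right in the 4 panels that set PGCLCs or gonadal cells against the late epiblast gate or ESCs.

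Counted together, TFCP2L1, SOX15 and KLF4 were lower in the epiblast gate after implantation and higher again in both kinds of germline cell, against ESCs and against the late epiblast gate. For KLF4 in PGCLCs this was less firm, with 4 of 12 cells at 50 RPM. Its call there was lost in edgeR against ESCs (adjusted p = 0.095) and in 6 of 23 alternatives against the late epiblast gate. KLF17 was at 0 in every PGCLC and gonadal cell, and KLF5 was at 50 RPM in none of them. DPPA4 was on in every class, and DPPA2, DPPA3 and DPPA5 were at or near 0 in PGCLCs at day 8 and at 50 RPM or more in part of the gonadal cells. Both TFCP2L1 and SOX15 were at 50 RPM in 10 of 12 PGCLCs (12 with TFCP2L1 and 10 with SOX15) and in 22 of 25 gonadal cells (23 and 24). In the germ cell gate 18 of 26 cells had both (18 and 25), so 7 cells had SOX15 without TFCP2L1. In the early epiblast gate 30 of 50 cells had both, of 38 with TFCP2L1 and 41 with SOX15, and in the late one 0 cells had both, of 1 and 2. Whether the 2 genes share cells more often than their single shares give was not tested. DPPA3 and DPPA5 were both at 50 RPM in 3 gonadal cells, of 10 with DPPA3 and 5 with DPPA5.

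**Figure D3:**
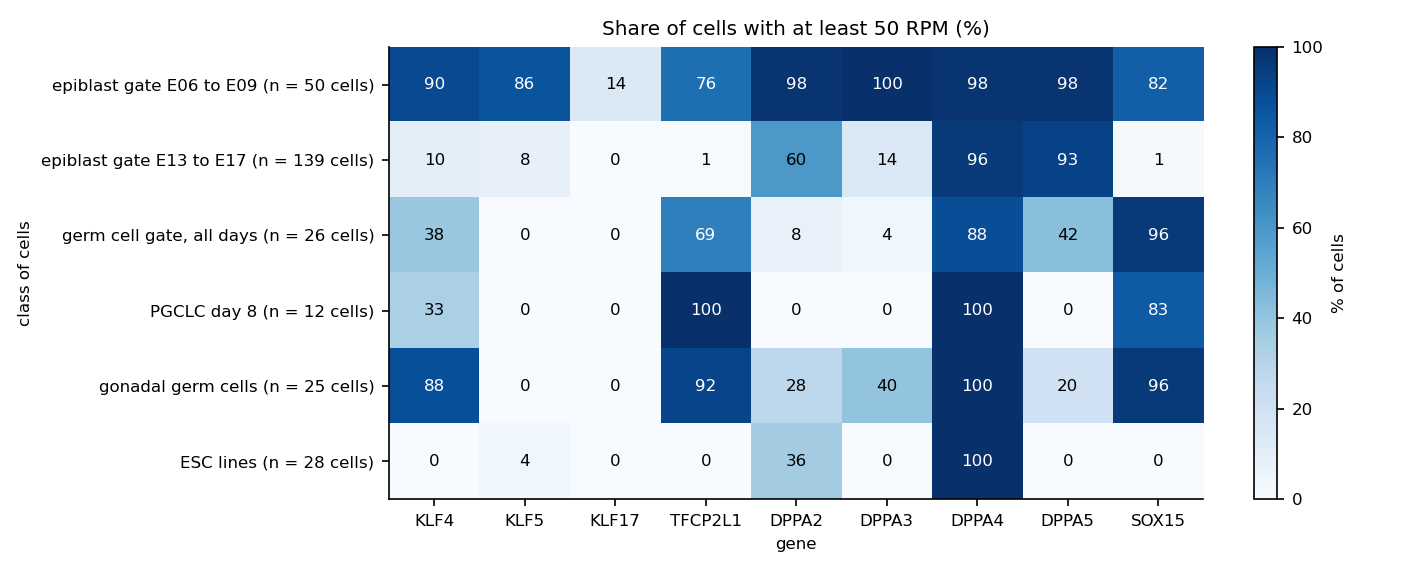
The grid gives the percentage of cells with at least 50 RPM for each gene (columns) in each class of cells (rows), with the number of cells per row. DPPA4 is high in every row, KLF5 and KLF17 are at 0 in PGCLCs and gonadal germ cells, and DPPA2, DPPA3 and DPPA5 are at 0 in PGCLCs and above 0 in gonadal germ cells.

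GATA4 marks hypoblast, endoderm and extraembryonic mesenchyme, and GATA3 trophectoderm and amnion, so embryo cells were split by these 2 genes to ask which of the 9 are also high in cells with either. Of 540 embryo cells 92 had GATA4 at 50 RPM or more and GATA3 below it, 88 had both, 258 had neither and the rest had GATA3 but not GATA4. COL3A1 averaged 1721 RPM, APOA1 890.5 RPM and GATA6 510.2 RPM in the GATA4 cells, and KRT18 averaged 5130.5 RPM and GATA2 319 RPM in the GATA3 cells. Neither class is a cell type. Cells outside the embryo set passed these thresholds too. GATA4 was at 50 RPM or more in 6 of 12 PGCLCs and 16 of 25 gonadal cells. GATA3 was at 50 RPM or more in 10 of 12 PGCLCs and 6 of 25 gonadal cells. In ESCs 0 of 28 cells had either gene at 50 RPM. At 25 to 50 RPM and at 50 to 100 RPM of GATA4, with GATA3 under 50 RPM (25 and 24 cells of all days), KLF5 averaged 38.6 and 67.7 RPM and DPPA4 177 and 128.9 RPM. On the 2 sides of the GATA3 threshold (24 and 20 cells) KLF5 averaged 63.8 and 32.2 RPM and DPPA4 256 and 189 RPM.

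On the 5 days with at least 5 cells in each class (E07, E08, E13, E16 and E17), KLF5 had higher means in both GATA classes than in cells with neither gene on 4 days. It averaged 139.5, 117.1, 16.49, 20.55 and 15.5 RPM in cells with neither gene, 324, 251.2, 76.7, 65.3 and 8.28 RPM in GATA4 cells and 720.1, 468, 39.1, 31.3 and 9.98 RPM in GATA3 cells. The GATA3 mean of KLF5 was thus highest at E07 and E08, the GATA4 mean at E13 and E16, and neither exceeded the cells with neither gene at E17. TFCP2L1 averaged 67.04, 87.03, 9.995, 11.8 and 4.43 RPM in cells with neither gene, 103.003, 68.8, 0.309, 1.24 and 51.6 RPM in GATA4 cells and 133.3, 155.4, 19.3, 22.6 and 68.7 RPM in GATA3 cells, higher in GATA3 than in neither cells on all 5 days. Within strata of 1 day and 1 title code, however, the GATA3 mean of TFCP2L1 was the higher one in only 2 of 7. On the late days these TFCP2L1 means came from few cells, with 6 of 55 GATA3 cells of E13 to E17 at 50 RPM, and cells of the germ cell gate fall into the GATA classes. KLF4 stayed high in GATA4 cells of the blastocyst, at 866 ± 711 RPM at E07 and 485 ± 381 RPM at E08, against 579 ± 299 and 269 ± 261 RPM with neither gene. In GATA3 cells KLF4 was at 503 ± 485 RPM at E07 and 35.1 ± 75.8 RPM at E08.

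DPPA3 was shared by all classes before implantation: of E06 to E09 cells, 29 of 29 GATA4 cells, 45 of 46 GATA3 cells and 59 of 59 cells with neither gene had 50 RPM. At E13 and E16 the cells with both GATA genes had the highest DPPA3 means, 73.1 ± 90.8 RPM at E13 (24 cells) and 61.7 ± 127.9 RPM at E16 (33 cells), where cells with neither had 44.4 and 3.51 RPM. DPPA2 and DPPA4 had lower means in both GATA classes on all 5 days. DPPA2 averaged 1024, 1194, 101.8, 43.1 and 41.01 RPM in cells with neither gene, 232, 113.5, 39.01, 26.4 and 15.8 RPM in GATA4 cells and 485, 189, 74.9, 26.6 and 15.7 RPM in GATA3 cells. DPPA4 averaged 1192, 849.9, 311, 174 and 141.1 RPM in cells with neither gene, 67.5, 56.3, 44.2, 73.6 and 112.7 RPM in GATA4 cells and 213.9, 111.02, 145.2, 106.1 and 105.7 RPM in GATA3 cells. DPPA5 averaged 2324, 1912, 1438, 184 and 111.5 RPM in cells with neither gene, 185, 31.1, 43.8, 183 and 164.2 RPM in GATA4 cells and 414, 284, 391, 54.7 and 49.6 RPM in GATA3 cells. In DPPA4 and DPPA5 the cells with neither gene had the highest mean at E07, E08 and E13. SOX15 at E08 averaged 106.1 RPM with neither gene, 1.04 RPM in GATA4 cells and 31.9 RPM in GATA3 cells, and KLF17 stayed below 50 RPM in all but 1 GATA4 and 1 GATA3 cell.

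**Figure D4:**
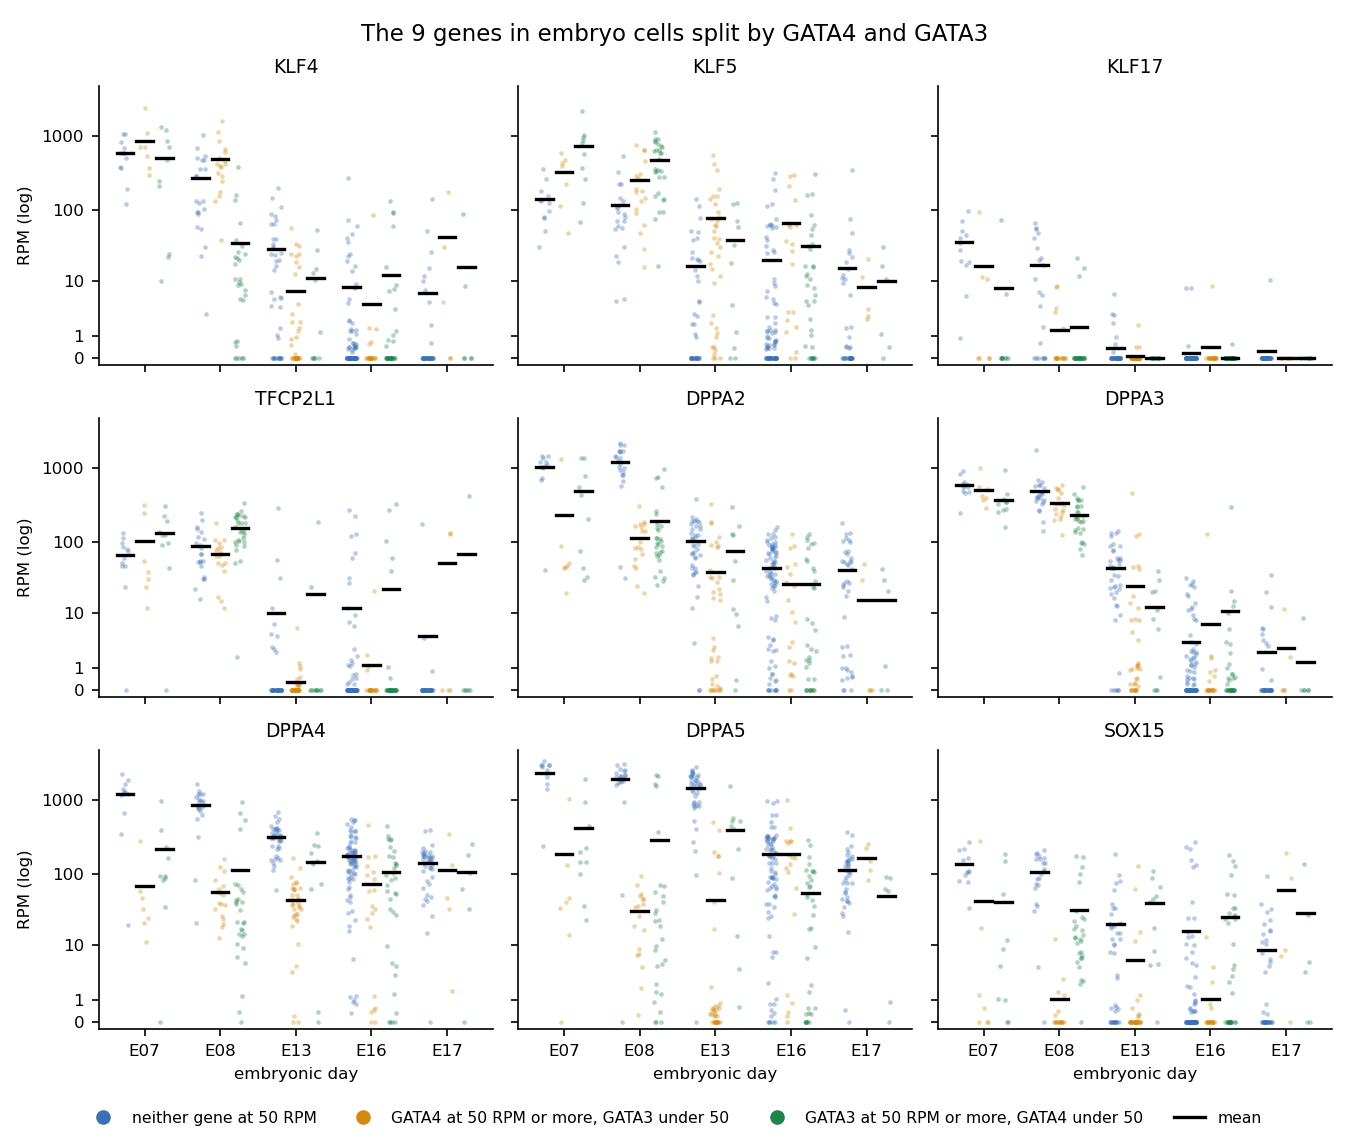
Each panel shows 1 gene in single embryo cells (points) with means (black bars), as RPM on a log2(RPM + 1) axis, for the 5 days with at least 5 cells per class. Blue cells have neither GATA4 nor GATA3 at 50 RPM, orange cells have GATA4 and green cells GATA3. KLF5 means are higher in orange and green than in blue at E07, E08, E13 and E16, and DPPA4 means are lower in orange and green than in blue on all 5 days.

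In the fit with day as a block, 1.92% of 10927 genes were called higher in GATA4 cells than in cells with neither gene and 2.15% lower. Of the 9 genes, DPPA4 (-2.47 ± 0.44, adjusted p = 0.0118) and DPPA2 (-1.78 ± 0.31, adjusted p = 0.0116) were called lower, both lower on 5 of 5 days, and 0 were called higher. DPPA5 was lower on 4 of 5 days (-2.80 ± 0.77, adjusted p = 0.0568) and KLF5 higher on 4 of 5 (1.05 ± 0.41, adjusted p = 0.157), neither of them called. DPPA5 was called lower in 11 of 31 alternatives, among them without cells of the germ cell gate (adjusted p = 0.0164) and with gates at 20 RPM (adjusted p = 0.0469) or 100 RPM (-4.17, adjusted p = 0.00892). KLF5 was called higher in 4 of 31 and SOX15 lower in 4 of 31. TFCP2L1 changed direction with the gate, at 1.03 (adjusted p = 0.399) with gates at 20 RPM and -2.18 (adjusted p = 0.0481, called lower) at 100 RPM. In GATA3 cells 0.348% of all genes were called, 0.293% higher and 0.0549% lower, and 0 of the 9 by limma. At an unadjusted p under 0.05 stood 5 of 9, against 14.2% of all genes. KLF17 is among these 5 (p = 0.0489 by limma). It reached 10 RPM in 3 of 8 units with neither gene, 1 of 5 GATA4 units and 0 of 5 GATA3 units. KLF17 was thus tested mainly because of the class in which it is high. By edgeR on recovered reads 0 of the 9 were called in either class, with 3 of 9 (GATA4) and 5 of 9 (GATA3) at an unadjusted p under 0.05, against 15.8% and 11.7% of all genes. The log2 differences in GATA3 cells were 1.11 ± 0.41, adjusted p = 0.229 for KLF5, 1.45 ± 0.68, adjusted p = 0.355 for TFCP2L1 and -1.52 ± 0.44, adjusted p = 0.132 for DPPA4. They were -1.24 ± 0.31, adjusted p = 0.0961 for DPPA2 and -1.999 ± 0.77, adjusted p = 0.251 for DPPA5, each lower on 5 of 5 days. In GATA3 cells calls were gained by DPPA4 in 5 of 31 alternatives, DPPA2 and KLF5 in 3 each, DPPA5 in 2 and DPPA3 and KLF17 in 1 each. The directions of KLF4, TFCP2L1 and DPPA3 in GATA4 cells, and of KLF4 and SOX15 in GATA3 cells, changed with the processing. The calls of DPPA4 and DPPA2 were lost in edgeR and without a filter, and that of DPPA2 also with units of 3 cells or without the block.

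Fits added after these values were seen split the days. With E07 and E08 as the days that hold all classes, 7.21% of 9234 genes were called higher in GATA4 cells and 6.58% lower, against 1 and 4 of the 9 genes. In GATA3 cells 8.46% were called, 4.7% higher and 3.76% lower, against 1 and 5 of the 9. KLF5 was called higher in GATA4 cells (1.15 ± 0.21, adjusted p = 0.00546) and in GATA3 cells (2.17 ± 0.21, adjusted p = 0.000287). DPPA4 was lower in both, with log2 changes of -4.01 ± 0.23, adjusted p = 9.8e-06 and -2.70 ± 0.23, adjusted p = 0.000138. DPPA2 was lower too (-2.76 ± 0.32, adjusted p = 0.000455 in GATA4 cells and -1.87 ± 0.32, adjusted p = 0.00673 in GATA3 cells). DPPA5 changed by -4.77 ± 0.42, adjusted p = 0.000192 in GATA4 cells and -2.62 ± 0.42, adjusted p = 0.00553 in GATA3 cells. SOX15 was lower in GATA4 cells (-3.69 ± 0.79, adjusted p = 0.0122), and KLF17 (-2.41 ± 0.63, adjusted p = 0.0421) and DPPA3 (-0.84 ± 0.20, adjusted p = 0.0265) in GATA3 cells. KLF17 was tested mainly through the cells with neither gene, so its place among the 5 lower genes is a description. With the days after implantation alone, 0 of the 8 genes tested were called by limma in either class, where 0.00994% of 10064 genes were called in each. The difference between the 2 periods, tested as an interaction, was called for none of the 9, where 0.677% (GATA4) and 0.0275% (GATA3) of all genes were called. It was nearest for DPPA4 in GATA4 cells (2.56 ± 0.54, adjusted p = 0.058). With the epiblast gate in place of all cells with neither gene, KLF5 was called higher in GATA4 cells (1.95 ± 0.37, adjusted p = 0.00696), where 9.37% of 10964 genes were called, 5.17% higher and 4.2% lower, and in GATA3 cells (2.01 ± 0.37, adjusted p = 0.0125), where 3.58% were called, 2.49% higher and 1.09% lower. Within the 7 strata of 1 day and 1 title code, the mean of KLF5 was higher in GATA4 cells in 7 and in GATA3 cells in 5, that of DPPA5 in 0 and 0, and that of DPPA4 in 0 and 1. The mean of DPPA2 was higher in 2 and 2 strata, that of TFCP2L1 in 3 and 2 and that of KLF4 in 2 and 1. For DPPA3 the strata were 1 and 2, for SOX15 1 and 4 and for KLF17 1 and 0. The order of the day means of DPPA2, TFCP2L1 and KLF4 thus did not hold in every stratum.

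Of the other naive genes, 3 of 17 were higher and 3 lower in GATA4 cells. TBX3, a T-box factor (3.42 ± 0.45), and the LIF receptor subunits IL6ST (2.49 ± 0.56) and LIFR (2.41 ± 0.59) rose, and the growth factor FGF4 (-4.66 ± 0.61), NANOG (-3.60 ± 0.76) and PRDM14 (-3.57 ± 0.93) fell. The list's median was -0.75, against -0.03 over all genes. In GATA3 cells TBX3 was the 1 of 17 that was called, higher by 3.38 ± 0.45, with a list median of 0.03 against -0.04.

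The genes most like each of the 9 were sought over the 18 groups with at least 5 cells, by Pearson's r of log2(mean RPM + 1) among genes with 50 RPM in at least 1 group. The groups share cells of the same lineages in unequal parts, so r describes these group means. TFCP2L1 was most like SOX15 (r = 0.96), SEC23B (r = 0.93) and TFAP2C (r = 0.92), and SOX15 most like TFCP2L1 (r = 0.96), SEC23B (r = 0.92) and PAPD5 (r = 0.91), so these 2 of the 9 were each other's nearest gene. DPPA3 was most like OOEP (r = 0.98), NLRP7 (r = 0.97) and NLRP2 (r = 0.96), genes known from the maternal program of the oocyte in the case of OOEP and the NLRP pair. DPPA5 was most like KHDC3L (r = 0.93), RBMXL2 (r = 0.87) and GATA6 (r = 0.87), and KHDC3L is a KH-domain gene related to it. Genes close to KLF17 were ESRRB (r = 0.94) and SHISA5 (r = 0.94), ESRRB being a naive factor in the mouse. KLF4 was most like GHITM (r = 0.92), STOM (r = 0.91) and SLC25A5 (r = 0.90), and KLF5 most like MPP7 (r = 0.94), UCHL5 (r = 0.92) and SLC51A (r = 0.92). DPPA2 was most like TCP1 (r = 0.92), IGFBP6 (r = 0.92) and ORC1 (r = 0.91), and DPPA4 most like OGDHL (r = 0.81), CETN3 (r = 0.80) and TAF9 (r = 0.77).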

How the data were processed

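SC3-seq values of 605 cynomolgus monkey cells were used as the authors deposited them, in RPM per gene and cell (column sums 988458 to 996773). The submitters' processing notes name cutadapt 1.3, TopHat 1.4.1 and Cufflinks 2.2.0, without their role, and no genome build is named in the sources used here. Identifiers of 8 of the 9 genes matched the RefSeq gene table. The exception was DPPA4, whose identifier 102116348 was absent there and whose symbol stood under 135964380, so its row was taken by symbol. Groups came from the sample labels. The highest correlation between 2 cells over genes was 0.894.

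Cells were averaged to units of at least 5 cells (ESC line, PGCLC medium, gonadal day, or gate by day), and unit means were tested with limma 3.58.1 in R 4.3.3 (eBayes with trend) on log2(mean RPM + 1), among genes with at least 10 RPM in at least 2 units. P-values were adjusted by Benjamini-Hochberg over all genes tested. GATA classes were compared with day as a block. A fold change on this scale understates the change of low genes. The labels name no animals or cultures, so units may differ technically. The title codes are the only batch-like labels, and their meaning is not given in the sources used here. The fits were tested on simulated data.

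In 530 cells the RPM steps gave whole reads for 99.81% of values within 0.1 read, so edgeR 4.0.16 (quasi-likelihood test) on reads recovered from the deposited RPM and summed per unit was an alternative, with 5.02% of genes called between PGCLCs and ESCs. Floors and shares given for counts of 0 take 3 reads or 3 cells over the group as the limit, an approximation, and cover counting error alone. The exact 95% intervals for 0 cells end higher, at 12.3% for 28 ESCs, 26.5% for 12 PGCLCs and 13.7% for 25 gonadal cells. Other alternatives were the pseudocount, the filter, means of logs, quantile normalization, units of 3 cells, gates at 20 and 100 RPM, no day block and each unit left out. The 9 genes and the gene lists were chosen with earlier results of these data known. Named genes were the 9, gate and marker genes where a result rests on them, from each list up to 4 called genes per direction, those most changed among genes reaching 50 RPM in the higher class, and the 3 genes most like each of the 9. Any other list gene was named after its values were seen, and 2 genes that the rule names are not reported here.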

Additional observations from a re-analysis of the deposited data

Results flagged for a closer look

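In groups of 4 to 10 cells, 6 of 46 sets of cells had a cell far from the others by Dixon's gap criterion at the 95% level, and 0 of 26 sets of unit means did. For normally distributed values chance alone flags about 1 in 20 such sets. The cell values are skewed, as for DPPA2 in 656BTAG with a median of 0.76 and a highest cell of 75.74 RPM. The rate for such sets is therefore not known here. In GK15 PGCLCs 1 cell had 231.78 RPM of KLF4. Another GK15 cell had 657.04 RPM of TFCP2L1. Of the 8 cells of 656BTAG, 1 had 75.74 RPM of DPPA2, the 1 cell of that line at 50 RPM. At E36 1 gonadal cell had 65.81 RPM of DPPA2, and at E50 1 gonadal cell had 78.43 RPM of DPPA5. Among the 5 embryo cells of E20, 1 had 86.21 RPM of DPPA5. These cells were kept in all values above.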

How the results depend on the processing

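Over all alternatives the values of the 9 genes kept direction and side of the threshold in 1402 cases, lost the call in 42, gained it in 38 and changed direction in 52. The calls of TFCP2L1 and SOX15 in PGCLCs and gonadal cells held under every alternative run, against ESCs and against the late epiblast gate. Gene counts are given as shares of the genes tested, which were 11.1% for PGCLCs against ESCs, 20.8% for gonadal cells against ESCs, 12.4% for gonadal cells against PGCLCs, 18.96% for the epiblast gate and 4.07% and 0.348% for the GATA4 and GATA3 classes. Without a filter on low values they were 3.40% for PGCLCs against ESCs, 2.80% for gonadal cells against PGCLCs, 0.00415% for GATA4 and 0.0207% for GATA3. With edgeR on recovered reads they were 5.02%, 11.8%, 5.34%, 12.4%, 0% and 0.0275% in the order first given, with 1727 (GATA4) and 1277 (GATA3) genes at an unadjusted p under 0.05 in edgeR and 2307 (GATA4) and 1553 (GATA3) by limma. Without the 8 gonadal cells with somatic genes, 7.36% of genes were called between PGCLCs and ESCs. The GATA4 share was 2.58% with units of 3 cells, 6.15% with gates at 20 RPM, 2.07% without the day block, 13.8% and 0.00994% for the days before and after implantation, and 9.37% against the epiblast gate. The GATA3 share was 0.595% with a pseudocount of 10 RPM, 0.952% with means of logs over cells, 0.631% with quantile normalization, 1.92% with units of 3 cells, 0.946% and 6.09% with gates at 20 and 100 RPM, 0.703% without germ cell gate cells, 0.146% without the block, 8.46% and 0.00994% before and after implantation, and 3.58% against the epiblast gate. The cause of these shifts was not tested. The split by days, the epiblast gate as reference and the exclusion of cells with somatic genes were chosen after seeing the data. No paired analysis was possible because the titles number cells within a code and no number joins cells across groups.

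Leaving out 1 unit at a time gave 4.58 to 13.9% of genes called for PGCLCs against ESCs (without CMK6 6.13%, CMK9 5.68%, GK15 4.58% and aRB27 7.39%), 12.6 to 22.2% for gonadal cells against ESCs (without CMK6 13.5% and CMK9 12.6%) and 3.70 to 14.5% for gonadal cells against PGCLCs (without GK15 3.70% and aRB27 8.02%). It gave 12.6 to 23.05% for the epiblast gate (without E17 12.6%), 16.8 to 29.3% for PGCLCs against the late epiblast gate (without GK15 16.8%) and 22.9 to 32.96% for gonadal cells against it. For GATA4 it gave 0.808 to 6.19% (without neither E07 1.07%, GATA4 E07 1.47%, neither E08 1.07%, GATA4 E08 1.06%, neither E13 0.808%, GATA4 E13 1.79% and GATA4 E17 6.19%) and for GATA3 0.0552 to 1.46% (without neither E07 0.0552%, GATA3 E07 0.0647%, neither E08 0.0642%, GATA3 E08 0.0919%, neither E13 0.0643%, GATA4 E13 1.46%, GATA3 E13 0.120%, GATA3 E16 0.139%, GATA4 E17 0.815% and GATA3 E17 0.608%). The share of higher genes among those called moved from 44.9% to 26.8% (means of logs) and 63.6% (edgeR) for PGCLCs against ESCs. For gonadal cells against PGCLCs it moved from 60.05% to 49.1% (edgeR), and for GATA3 from 84.2% to 50.0% (means of logs). Without the somatic-marked cells it was 46.6% for gonadal cells against PGCLCs, 40.1% against ESCs (from 51.4%) and 39.3% against the late epiblast gate (from 51.1%).

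The changes of direction were among values that were not called in the main comparison. DPPA2 in gonadal cells against ESCs was -0.21 with means of logs, and DPPA4 0.15 with quantile normalization. SOX15 in gonadal cells against PGCLCs was -0.33 in edgeR. DPPA4 in PGCLCs against the late epiblast gate was -0.00113 with a pseudocount of 10 RPM, -0.070 with means of logs, -0.053 and -0.013 with gates at 20 and 100 RPM, and -0.074 in edgeR. In GATA4 cells TFCP2L1 was 0.087 with a pseudocount of 10 RPM, 0.27 with means of logs, 1.03 at 20 RPM (and -2.18, called lower, at 100 RPM), 0.14 before implantation and 0.68 against the epiblast gate. DPPA3 there was 0.11 with quantile normalization, 0.047 and 0.31 at 20 and 100 RPM and 0.044 after implantation. KLF4 there was -0.064 with units of 3 cells, -0.74 at 100 RPM, -0.46 without the block, -0.079 in edgeR and -0.042 after implantation. In GATA3 cells KLF4 was 0.13 after implantation, and SOX15 0.011 with quantile normalization, 0.17 at 20 RPM, 1.08 after implantation and 0.45 against the epiblast gate. Leaving out 1 unit at a time gave -0.34 to 0.64 for DPPA2 in gonadal cells against ESC, -0.49 to 0.021 for DPPA4 in gonadal cells against ESC, -0.24 to 0.34 for SOX15 in gonadal cells against PGCLC, -0.26 to 0.21 for DPPA4 in PGCLCs against the late epiblast gate, -0.80 to 0.66 for SOX15 in GATA3 cells, -0.46 to 0.13 for DPPA3 in GATA4 cells, -0.23 to 0.70 for KLF4 in GATA4 cells, -1.04 to 0.12 for KLF4 in GATA3 cells and -1.15 to 0.19 for TFCP2L1 in GATA4 cells.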
